A study of Mus musculus with 3 samples.

Results

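The 10 genes described here, Lpl, Cd36, Fabp4, Fabp5, Acsl1, Dgat1, Dgat2, Plin2, Pnpla2 and Mgll, act in the uptake, binding, storage and release of fatty acids. They were chosen by symbol, and each symbol had 1 gene among the 55536 annotated genes of the tables. RNA bound to chromatin was sequenced, after removal of ribosomal RNA, from macrophages grown from the bone marrow of C57BL/6J mice. All libraries had the same treatment: 100 ng/ml Lipid A for 12 h, then 12 h of washout, then 100 ng/ml Lipid A for 15 min. Lipid A, the membrane anchor of bacterial lipopolysaccharide, is what the receptor TLR4 recognises. No transgene, deletion or other agent is named, and the age and sex of the mice are given as not collected. The libraries are biological replicates 1, 2 and 3 and started from 1 µg, 250 ng and 500 ng of RNA. They share 1 donor identifier in the labels, which leave unsaid if different mice were used, so part of the spread between libraries may be technical. With 1 group and no untreated cells analysed here, the data describe levels, their order and their spread, and no effect of Lipid A was measured.

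Macrophages take up fatty acids that lipoprotein lipase releases from lipoproteins and that scavenger receptors bring in. Inside the cell, binding proteins carry the fatty acids, acyl-CoA synthetases activate them, and acyltransferases build triglyceride, which is kept in droplets coated by perilipins. Lipases empty the droplets again, and cells with many droplets are known as foam cells. Chromatin RNA holds transcripts that are still being made or spliced, so the levels here are those of RNA at the gene and not of RNA in the cytoplasm. In bulk RNA, fewer cells that express a gene and less RNA per cell cannot be told apart.

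The expected counts, which are read counts shared out between transcripts by estimation, totalled 14609979, 17423948 and 24162551 in replicates 1, 2 and 3. Replicate 1 was thus the shallowest library and replicate 2 the one with the least starting RNA. Levels are in TPM, a count divided by transcript length and scaled to the same total in each library, and a gene counted as detected if its expected counts averaged 10 or more. The macrophage markers were present: 10 of 10 averaged 1 TPM or more, with a summed level of 948 to 1021 TPM per library. The adipocyte markers had 1 of 8 at that level, Plin4, with a summed level of 1.89 to 2.07 TPM, and Adipoq, Lep and Pck1 were at 0. The endothelial markers had 2 of 8, Kdr and Pecam1, with a sum of 4.91 to 13.2 TPM, and Robo4 was at 0. The megakaryocyte and erythroid markers had 3 of 8 at 4.09 to 7.60 TPM in sum, with Gp1bb, Gata1 and Hba-a1 at 0. The fibroblast, neutrophil and lymphocyte markers had 0 of 8 each, with sums of 0.01 to 2.10, 0.40 to 1.00 and 0.30 to 0.50 TPM. A second table, estimated directly from the reads, gave higher sums for several of these lists, such as 28.9 to 35.7 TPM for the lymphocyte markers and 11.5 to 13.2 TPM for the adipocyte markers.

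Of the 10 genes, 9 were detected and the same 9 averaged 1 TPM or more, whereas 48.4% of all 22028 protein-coding genes reached 1 TPM. Dgat2 was the exception. The median level of the 10 was 4.58 ± 0.13 on the log2(TPM + 1) scale (SD, n = 3), against 3.43 ± 0.03 for the 11758 detected protein-coding genes. Fabp5 and Plin2 stood highest, at 169 ± 38.7 and 116 ± 7.79 TPM, and lay above 97.8% and 96.1% of the detected protein-coding genes. Pnpla2 and Mgll were the lowest of the detected members, at 6.97 ± 0.761 and 4.81 ± 0.942 TPM, above 41.7% and 33.4% of those genes. Features under 200 nt and 3 neighbouring genes rich in ribosomal sequence held 45.0 to 48.6% of all TPM per library. Leaving them out raised the median log2 level of detected protein-coding genes by 0.89, 0.84 and 0.80 and that of the 9 detected members by 0.93, 0.88 and 0.83.

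**Figure D1:**
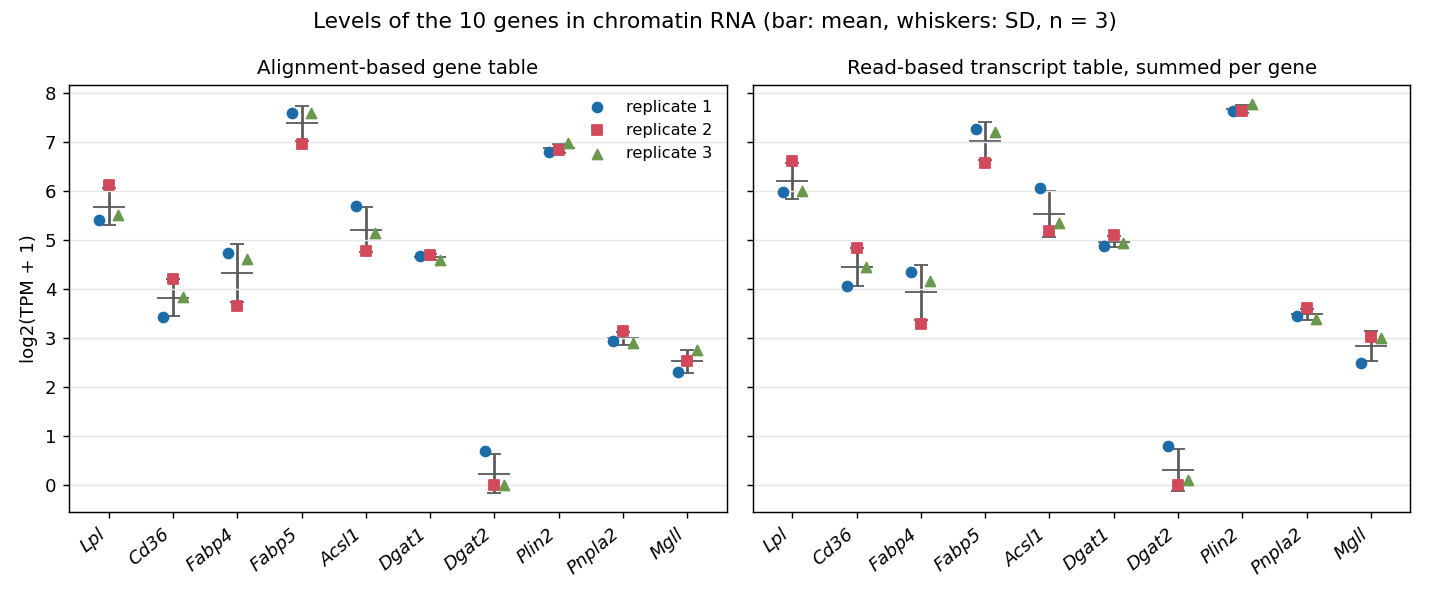
Levels of the 10 genes on the log2(TPM + 1) scale in the alignment-based gene table (left) and the read-based table (right). Points are libraries, horizontal bars the mean and whiskers the SD (n = 3). Fabp5 leads on the left and Plin2 on the right, and Dgat2 lies at or near 0 in both.

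Lpl encodes lipoprotein lipase, the secreted enzyme that frees fatty acids from triglyceride-rich lipoproteins. The gene lies on chromosome 8 from 68880491 to 68907448 on the plus strand (mm10). Its levels were 41.7, 68.4 and 44.5 TPM in replicates 1, 2 and 3, a mean of 51.5 ± 14.6, from 1683, 3333 and 2877 expected counts. Replicate 2 stood above the other libraries, which lay close together. The read-based table gave 62.2, 97.6 and 63.0 TPM, with the same library highest.

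Cd36 encodes a scavenger receptor for oxidised lipoproteins and long-chain fatty acids (chromosome 5, 17781690 to 17888801, minus strand). Its levels were 9.80, 17.3 and 13.4 TPM, a mean of 13.5 ± 3.77, from 238, 457 and 462 expected counts. Replicate 2 was again highest, and replicate 1 lowest. Within each library Lpl exceeded Cd36, by 4.26, 3.94 and 3.33 times in replicates 1, 2 and 3. Both genes of fatty acid entry were thus highest in replicate 2 and lowest in replicate 1, in the read-based table as well.

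Fabp4 and Fabp5 encode small cytoplasmic proteins that bind fatty acids and carry them between membranes, droplets and the nucleus. They are neighbours on chromosome 3, Fabp5 from 10012548 to 10016607 on the plus strand and Fabp4 from 10204088 to 10208576 on the minus strand, 187480 nt apart. Their coding sequences of 396 nt (Fabp4) and 405 nt (Fabp5) were identical at 60.6% of aligned positions. Each gene has 1 protein-coding and 1 retained intron transcript in GENCODE M21, and the retained intron transcript was the more abundant in both. The sequences around the end of the first exon show what sets these transcripts apart. In each pair the first line is the spliced transcript and the second the one left unspliced at intron 1. Lower case marks exon bases of the coding transcript and capitals mark the first bases of intron 1, which start with GT. The exon side is chr3:10208439-10208458 (minus strand) for Fabp4 and chr3:10012699-10012718 (plus strand) for Fabp5, in mm10.
Fabp4-201: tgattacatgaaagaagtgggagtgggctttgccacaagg
Fabp4-202: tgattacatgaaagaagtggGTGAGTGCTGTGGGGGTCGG
Fabp5-201: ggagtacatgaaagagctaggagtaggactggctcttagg
Fabp5-202: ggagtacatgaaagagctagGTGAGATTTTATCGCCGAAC

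Fabp4 stood at 25.5, 11.5 and 23.5 TPM in replicates 1, 2 and 3, a mean of 20.2 ± 7.56, from 945, 515 and 1499 expected counts. Fabp5 stood at 191, 124 and 191 TPM, a mean of 169 ± 38.7, from 5504, 4671 and 8762 expected counts. Both genes were lowest in replicate 2, and their levels in replicates 1 and 3 lay close together. Fabp5 exceeded Fabp4 in each library, by 7.52, 10.8 and 8.14 times. The read-based table gave lower levels for both, at 15.0 ± 5.50 TPM for Fabp4 and 132 ± 32.2 TPM for Fabp5, again with replicate 2 lowest. Among all 10 members, Fabp5 alone had near-identical gene copies, at 95% identity or more over at least 80% of the coding sequence. These were the pseudogenes Gm6166 and Gm14328, with 0, 1.04 and 3.12 expected counts together in replicates 1, 2 and 3.

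The low value of replicate 2 was shared by both transcripts of both genes. The spliced Fabp4-201 had 8.03, 3.87 and 5.45 TPM, and the unspliced Fabp4-202 had 17.4, 7.62 and 18.1 TPM. The spliced Fabp5-201 had 61.8, 32.9 and 58.4 TPM, and the partly spliced Fabp5-202, which keeps 2 of 3 introns, had 130, 91.6 and 133 TPM. In the read-based table replicate 2 was lowest for these transcripts too, with 2.65 TPM for Fabp4-201 and 29.0 TPM for Fabp5-201.

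Acsl1 encodes a long-chain acyl-CoA synthetase, which joins fatty acids to coenzyme A before they are stored or burned (chromosome 8, 46471037 to 46536051, plus strand). Its levels were 51.0, 26.5 and 34.5 TPM in replicates 1, 2 and 3, a mean of 37.3 ± 12.5, from 2099, 1196 and 2080 expected counts. Replicate 1 was highest and replicate 2 lowest, as in the read-based table with 66.1, 35.5 and 39.8 TPM. An annotated gene on the opposite strand, Gm45244, shares 1039 exonic nt with Acsl1. Gm45244 had 24.4, 8.51 and 10.1 TPM, in the same order of libraries as Acsl1. No source used here states if the counting was stranded, so reads of Acsl1 and Gm45244 cannot be told apart with certainty.

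Dgat1 and Dgat2 encode unrelated enzymes for the same step, the last acylation that makes triglyceride from diacylglycerol. Dgat1 (chromosome 15, 76502015 to 76511953, minus strand) had 24.7, 24.8 and 23.1 TPM, a mean of 24.2 ± 0.979, from 206, 261 and 381 expected counts. These levels had the smallest SD of the detected members on the log2(TPM + 1) scale, while in the read-based table Plin2 varied less, relative to its mean, than Dgat1 with its 30.4 ± 2.65 TPM. Dgat2 (chromosome 7, 99153658 to 99182719, minus strand) had 3, 0 and 0 expected counts and 0.61, 0 and 0 TPM in the alignment-based table, and 0.73, 0 and 0.07 TPM in the read-based table. Summed over the libraries, 848 counts fell on Dgat1 and 3 on Dgat2, a ratio of 283 with an exact binomial 95% interval of 96.4 to 1373 for counting error only. The 0 in replicate 3 allows up to 3 counts, or 1.24e-05% of that library. Triglyceride synthesis at this step was thus represented by Dgat1 RNA, with Dgat2 RNA near or below detection at this depth.

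Plin2 encodes perilipin 2, the main coat protein of droplets in cells other than adipocytes (chromosome 4, 86648386 to 86670060, minus strand). Its levels were 110, 114 and 125 TPM in replicates 1, 2 and 3, a mean of 116 ± 7.79, from 1516, 1744 and 2596 expected counts. The read-based table gave 197, 198 and 218 TPM, which placed Plin2 above Fabp5 in each library. Plin2 has no transcript annotated as retained intron, but its processed transcript Plin2-202 reads on into intron 3. That transcript held 33.1 ± 2.42% of Plin2 TPM in the alignment-based table, next to 39.4 ± 4.17% for the full-length coding transcript Plin2-201. In the read-based table Plin2-202 held 20.2% and Plin2-201 15.6% of TPM. By alignment-based counts Plin2-202 held 24.2% and Plin2-201 62.5%. The pair is shown at the end of exon 3 (exon side chr4:86668367-86668386, minus strand, mm10), with intron bases in capitals.
Plin2-201: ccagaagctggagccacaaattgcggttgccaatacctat
Plin2-202: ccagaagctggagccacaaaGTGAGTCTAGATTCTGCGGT

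Pnpla2 encodes adipose triglyceride lipase, which takes the first fatty acid off triglyceride (chromosome 7, 141455198 to 141460743, plus strand). Its levels were 6.64, 7.84 and 6.43 TPM, a mean of 6.97 ± 0.761, from 132, 186 and 208 expected counts. Mgll encodes monoacylglycerol lipase, which takes off the last one (chromosome 6, 88724412 to 88828360, plus strand). It had 3.91, 4.74 and 5.79 TPM, a mean of 4.81 ± 0.942, from 42, 86 and 154 expected counts, the fewest of the detected members. Pnpla2 exceeded Mgll in each library, by 1.70, 1.65 and 1.11 times, and Mgll rested on few counts. Plin2 exceeded Pnpla2 by 16.6, 14.6 and 19.4 times, so the coat gene stood far above both droplet lipase genes. Mgll shares 167 exonic nt with the antisense gene Gm26588, which had 3, 0 and 7 expected counts.

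In order of mean level the genes ran Fabp5, Plin2, Lpl, Acsl1, Dgat1, Fabp4, Cd36, Pnpla2, Mgll and Dgat2. Of the 9 neighbouring pairs, 5 did not overlap over the libraries: Plin2 over Lpl, Acsl1 over Dgat1, Cd36 over Pnpla2, Pnpla2 over Mgll and Mgll over Dgat2. Fabp5 and Plin2 overlapped, since Fabp5 in replicate 2 (124 TPM) lay just under Plin2 in replicate 3 (125 TPM), although Fabp5 was the higher in each library. Lpl and Acsl1, Dgat1 and Fabp4, and Fabp4 and Cd36 overlapped as well. In the read-based table the order began with Plin2 at 204 ± 11.8 TPM and Fabp5 at 132 ± 32.2 TPM, which did not overlap. It also set Cd36, at 21.3 ± 5.88 TPM, above Fabp4. The ratio of Fabp5 to Lpl was 4.59, 1.82 and 4.30 in the alignment-based table and 2.46, 0.971 and 2.34 in the read-based one. In replicate 2 the latter thus put Lpl level with Fabp5.

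The libraries did not move the genes together. Each library was compared with the mean of the other libraries on the log2(TPM + 1) scale, and a difference past 1.5-fold was counted. This is 1 library against 2 of the same group, so it carries no test. In replicate 2, Lpl stood above the others, by 0.65 on the log2 scale (1.57-fold), where 2.13% of the 15879 detected genes were above by that much. Fabp4, Fabp5 and Acsl1 stood below in replicate 2, by log2 differences of -1.03, -0.62 and -0.65, where 3.89% of detected genes were below. Cd36 was above in replicate 2 by 0.56, just short of 1.5-fold.

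In replicate 1, Fabp4 and Acsl1 stood above the others by 0.60 and 0.73 on the log2 scale, where 4.88% of detected genes did. Cd36 stood below by a log2 difference of -0.59, where 2.71% of detected genes did. In replicate 3, 0 of the 9 detected members passed 1.5-fold in either direction, where 1.74% of detected genes were above and 2.13% below. With counts scaled by TMM, a library scaling that discounts extreme genes, Lpl (0.66) and Fabp4 (-1.11) kept their place in replicate 2 and Acsl1 kept its own in both replicates (0.86 and -0.73). Fabp5 in replicate 2 (-0.50) and Fabp4 (0.55) and Cd36 (-0.47) in replicate 1 came short of 1.5-fold under TMM. Mgll passed it, with -0.80 in replicate 1 and 0.68 in replicate 3. Under TMM, 4.33% of detected genes were above and 2.49% below in replicate 1. These shares were 1.64 and 2.92% in replicate 2 and 1.03 and 1.68% in replicate 3. In the read-based table Acsl1 in replicate 2 (-0.52) and Cd36 in replicate 1 (-0.57) came short, as did Cd36 in replicate 1 (-0.54) after rescaling without short and ribosome-rich features. With a pseudocount of 0.1, Cd36 in replicate 2 passed as well. Replicate 2 had the least starting RNA and replicate 1 the fewest counts, and their part in these differences was not tested.

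Some markers of other cells moved with these differences at low levels. Kdr, the endothelial receptor for vascular endothelial growth factor, had 11.0, 3.19 and 4.56 TPM in replicates 1, 2 and 3, the library order of Acsl1 and of Fabp4 in TPM, and Cdh5 had 0.64, 0.03 and 0.05 TPM. Pecam1, the other endothelial marker at 1 TPM or more on average, had 1.22, 1.53 and 1.17 TPM, with replicate 2 highest. The remaining endothelial markers, Tek, Emcn, Gpihbp1, Esam and Robo4, stayed at 0 to 0.13 TPM in each library. Col3a1, a fibroblast collagen gene, had 0, 1.01 and 0.30 TPM, the library order of Lpl and Cd36, at a summed fibroblast level of at most 2.10 TPM. Col1a1 (0.01, 0.43 and 0.42 TPM) and Col1a2 (0, 0.49 and 0.29 TPM) had that order too. Pf4, a platelet chemokine gene among the megakaryocyte markers, also had it, with 1.02, 4.50 and 4.12 TPM. Itga2b and Gp9 of the same list did not, with 2.00, 2.14 and 0.83 TPM and 1.07, 0.91 and 1.03 TPM. Among the macrophage markers, Cd68 (49.5, 28.8 and 40.8 TPM) and Fcgr1 (76.8, 46.4 and 54.5 TPM) had the library order of Acsl1. Lyz2 (157, 175 and 158 TPM) had that of Lpl, and the rest of the 10 had neither. With 3 libraries a shared order is a description, and the part of these markers in the results was not tested.

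**Figure D2:**
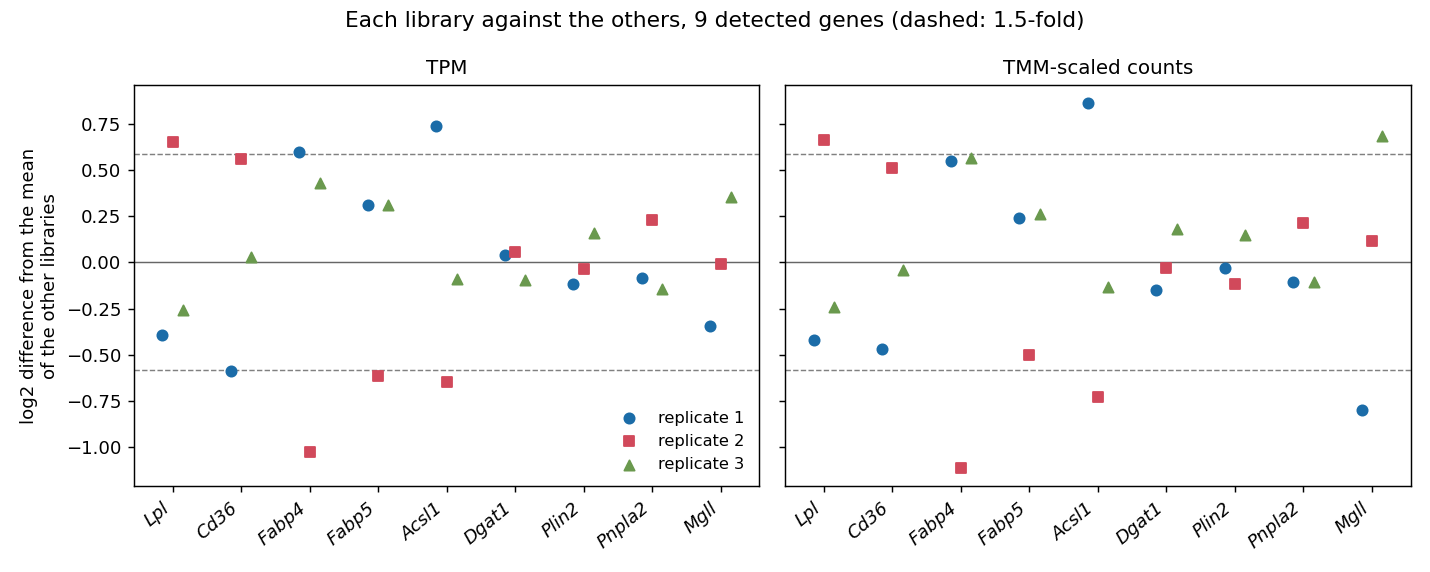
Log2 difference of each library from the mean of the other libraries for the 9 detected genes, from TPM (left) and from TMM-scaled counts (right), with dashed lines at 1.5-fold. In replicate 2, Lpl and Cd36 lie above 0 and Fabp4, Fabp5 and Acsl1 below it, while Dgat1, Plin2 and Pnpla2 stay within 0.25 of 0 in every library.

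The highest level fell in replicate 1 for 3 of the 9 detected members (Fabp4, Fabp5 and Acsl1), in replicate 2 for 4 (Lpl, Cd36, Dgat1 and Pnpla2) and in replicate 3 for 2 (Plin2 and Mgll). Among all detected genes these shares were 39.4, 28.9 and 31.7%. For Fabp5 replicates 1 and 3 were equal at 191 TPM after rounding, and under TMM 1 member was highest in replicate 1. The median SD over libraries was 0.37 on the log2 scale for the 10 genes, against 0.16 for detected protein-coding genes, and 0.36 for the 9 detected members, 6 of which lay above 0.16. Without replicate 2 the median of the 9 was 0.079, against 0.13 for the background, which ended the wider spread of the members. Without replicate 1 it was 0.25 against 0.11, and without replicate 3 it was 0.44 against 0.15. The SD was largest for Fabp4 (0.60) and smallest for Dgat1 (0.06) among the 9.

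Counts gave a partly like picture through the biological coefficient of variation. This coefficient is the spread between libraries beyond counting error that edgeR estimates from all genes together. It was 0.269 for Mgll, 0.262 for Fabp4, 0.237 for Acsl1, 0.191 for Lpl, 0.176 for Cd36 and 0.160 for Fabp5, each above the trend of genes at a like level. It was 0.142 for Pnpla2, 0.130 for Dgat1 and 0.121 for Plin2, each below that trend. Mgll was thus the most variable member by counts. Its SD on the log2(TPM + 1) scale, 0.23, lay below those of Fabp4, Acsl1, Lpl, Cd36 and Fabp5. The median of the 9 was 0.176, against 0.157 over the 15879 genes fitted, 0.142 against 0.166 without replicate 2, 0.127 against 0.130 without replicate 1 and 0.197 against 0.190 without replicate 3. With every gene of a count above 0 fitted, it was 0.174 against 0.204, so the members' median did not stay above that of all genes. Over the 3 libraries the coat gene, the triglyceride synthesis gene Dgat1 and the first lipase gene were thus the steadiest members by both measures. This ranking did not hold without replicate 2. There the coefficient was lowest for Fabp4 (0.124), followed by Plin2 and Lpl (0.130 each) and Fabp5 (0.132), with Dgat1 at 0.142 and Pnpla2 at 0.158.

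Fabp4, the member with the largest SD, was also compared with other genes by its pattern over the 3 libraries. Among 5822 protein-coding genes with at least 10 TPM, the closest were Slc38a2, an amino acid transporter gene (26.5, 11.9 and 25.3 TPM), Tmsb10, which encodes an actin-binding thymosin (31.7, 15.1 and 29.2 TPM), and Nfkbie, an inhibitor of NF-kappaB (15.3, 7.32 and 14.5 TPM). Their root mean square differences from Fabp4 were 0.024, 0.032 and 0.046 on the centred log2 scale. With 3 libraries such a likeness is a description, and 14 genes lay within 0.1.

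Transcript tables divide each gene between its annotated isoforms. Of the 9 detected members, 7 have a transcript of the type retained intron, which keeps sequence that the coding transcript splices out. The share of a gene's TPM in this type was 84.3 ± 7.04% for Dgat1, 70.5 ± 5.54% for Fabp4, 70.3 ± 3.02% for Fabp5, 52.7 ± 3.67% for Acsl1, 39.8 ± 7.98% for Pnpla2, 33.4 ± 4.66% for Lpl and 3.92 ± 6.79% for Mgll. Over 50% was reached by 4 of these 7, where 44.5% of 6579 genes with both transcript types did, so the members' share lies near the background. The read-based table had 3 of 7 over 50%, against 43.8% of 7509 genes. There Acsl1 fell to 42.7% and Dgat1 stood at 63.4%, with a further 27.2% of Dgat1 in processed transcripts.

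**Figure D3:**
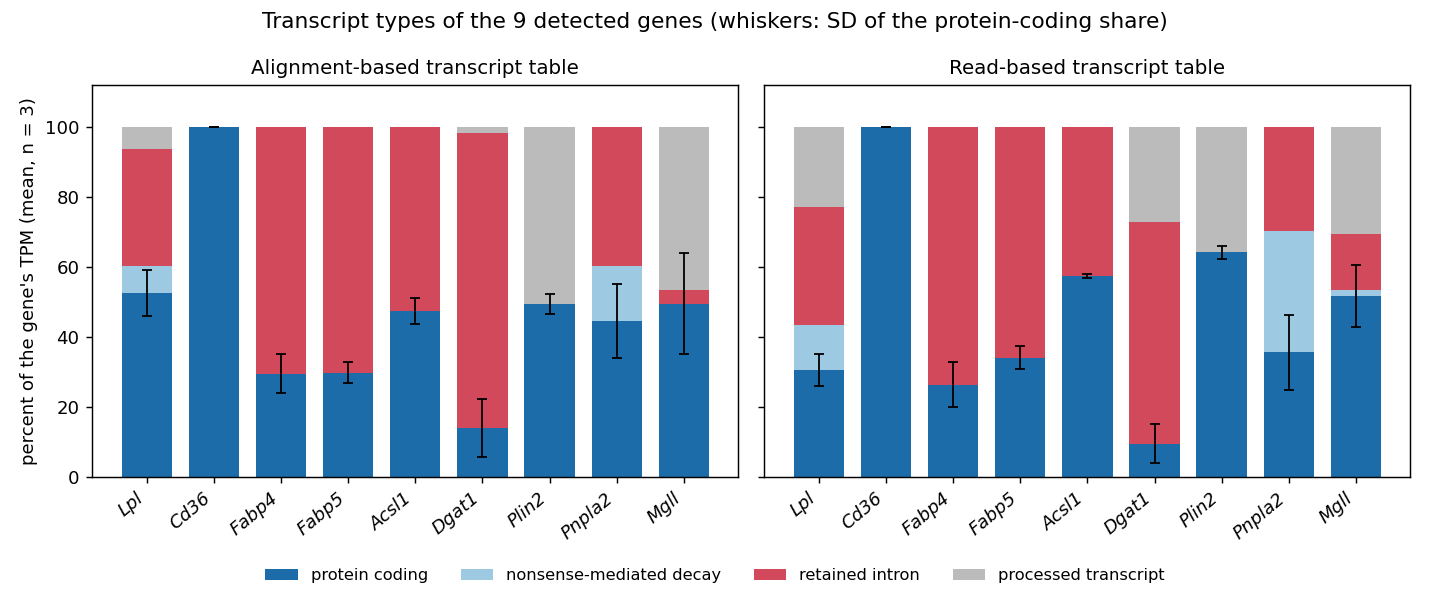
Share of each gene's TPM by annotated transcript type (mean, n = 3), in the alignment-based (left) and read-based (right) transcript tables, with whiskers for the SD of the protein-coding share. Retained intron transcripts hold most of Dgat1, Fabp4 and Fabp5 in both, and Cd36 has protein-coding transcripts alone.

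By counts, which weigh long transcripts more, Fabp4-202 and Fabp5-202 held 93.5 and 90.4% of their genes' counts, where the median over genes was 30.2%. Fabp4-202 is 1 exon of 4231 nt that covers 94.3% of the gene and keeps 3 of 3 introns. Fabp5-202 keeps 2 of 3 introns in its 3238 nt. Annotated exons cover 100% of the Fabp4 span and 87.9% of the Fabp5 span, but 38.9% of Lpl, 16.2% of Plin2, 16.1% of Acsl1, 4.88% of Mgll and 3.35% of Cd36. Reads from introns outside any annotated exon have no transcript to be counted on, so shares of unspliced RNA are not like for like between these genes.

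Dgat1 kept its level while its transcripts shifted between libraries. Its coding transcript Dgat1-201 had 1.48, 3.23 and 5.19 TPM in replicates 1, 2 and 3, or 6.00, 13.0 and 22.5% of the gene. The 6 retained intron transcripts together had 22.1, 21.6 and 17.6 TPM. By counts Dgat1-201 held more, 15.1, 31.8 and 44.4% of the gene, and the retained intron type held 68.0% on average. Dgat1-201, of 1888 nt, was then the leading transcript on average, with 30.4% against 26.2% for Dgat1-205, of 885 nt. Dgat1-205, the leading transcript by TPM, held 29.1 ± 3.31% of TPM and keeps introns 12 and 13 of Dgat1-201, of 82 and 74 nt. The read-based table gave 1.22, 2.93 and 4.49 TPM for Dgat1-201, in the same order. Replicate 1, with the lowest share, was also the shallowest library, and the part of depth was not tested. The join of exons 12 and 13 is shown with the same exon end in Dgat1-205 (exon side chr15:76503154-76503173, minus strand, mm10), with the bases of intron 12 in capitals.
Dgat1-201: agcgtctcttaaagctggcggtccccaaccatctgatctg
Dgat1-205: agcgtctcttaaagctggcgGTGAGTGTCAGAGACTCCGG

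For Lpl the full-length coding transcript Lpl-201 led with 21.3, 32.1 and 26.6 TPM, or 52.6 ± 6.58% of the gene, and 30.5 ± 4.62% in the read-based table. The retained intron transcripts Lpl-205, which reads on from exon 1 into intron 1, and Lpl-202, which reads on from exon 2 into intron 2, held 16.9 ± 3.71% and 16.6 ± 1.68%. Replicate 2 was highest for Lpl-201, Lpl-205 and Lpl-202 in both tables, so the high value of that library did not rest on 1 transcript. The end of exon 1 is shown for the spliced and the unspliced form (exon side chr8:68880821-68880840, plus strand, mm10), with intron bases in capitals.
Lpl-201: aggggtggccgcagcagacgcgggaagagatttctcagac
Lpl-205: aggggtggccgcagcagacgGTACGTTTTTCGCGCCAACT

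Acsl1-201, the full-length coding transcript, led Acsl1 with 24.5, 11.2 and 16.3 TPM, or 45.9 ± 3.15%. The retained intron transcript Acsl1-204 followed on average, with 12.4, 5.45 and 7.22 TPM. In replicate 2 the retained intron transcript Acsl1-206 was above it, at 6.17 TPM. Acsl1-201 and Acsl1-204 both had their highest value in replicate 1 and their lowest in replicate 2. In the read-based table Acsl1-201 held 22.5 ± 5.43%, followed by the retained intron transcript Acsl1-206 with 20.9 ± 1.27%. There, in replicate 2, Acsl1-201 (5.78 TPM) lay below Acsl1-206 (7.78 TPM) and Acsl1-204 (5.97 TPM). By read-based counts Acsl1-206, of 573 nt, held 3.06%, Acsl1-201 32.8% and Acsl1-204 37.7%. By TPM, Cd36 was led by its shortest transcript, Cd36-205 of 702 nt, with 41.6 ± 6.67%. By counts Cd36-205 held 10.9%, and Cd36-201 led with 34.0%. By mean TPM, Mgll was led by Mgll-206, a processed transcript of 443 nt, with 2.03, 2.50 and 2.03 TPM, or 46.6% of the gene on average. This lead rested on 6, 7.64 and 8.05 expected counts, and in replicate 3 the coding transcript Mgll-205 was higher, at 2.38 TPM. By counts Mgll-206 held 9.47% of the gene, where the coding transcript Mgll-204 held 52.5%. Like Plin2-202, Mgll-206 is not of the type retained intron but reads on from exon 2 of the coding transcript Mgll-202 into its intron 2. Leaders by TPM differed between the tables for Plin2, where Plin2-206 led with 22.7 ± 1.23% in the read-based table, and for Pnpla2. By read-based counts Plin2-206, of 551 nt, held 11.0% and Plin2-201 36.6%. On average, the coding transcript Pnpla2-203 led in the alignment-based table with 42.0 ± 7.24%, and the retained intron transcript Pnpla2-207 in the read-based one with 29.7 ± 7.44%. Neither led in every library. In replicate 2 of the alignment-based table Pnpla2-207 (3.78 TPM) stood above Pnpla2-203 (3.52 TPM). In the read-based table Pnpla2-201, annotated for nonsense-mediated decay, stood above Pnpla2-207 in replicates 1 (2.70 against 2.62 TPM) and 3 (2.48 against 2.34 TPM). By read-based counts Pnpla2-201 held 40.6% and Pnpla2-207 held 17.2%.

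Other lipid genes were read from 9 lists with 102 genes, of which 75 were detected and 72 averaged 1 TPM or more (78 by the read-based table). Of the 75, 5 stood above (6.67%) and 4 below (5.33%) by 1.5-fold in replicate 1, where 4.88 and 2.71% of all detected genes did. In replicate 2, 3 stood above and 3 below (4% each), against 2.13 and 3.89%. In replicate 3, 2 stood above and 2 below (2.67% each), against 1.74 and 2.13%. Receptors and transporters for lipoproteins and fatty acids had 8 of 12 genes at 1 TPM or more. They were led by Lrp1, a large lipoprotein receptor (286 ± 10.9 TPM), the scavenger receptor gene Msr1 (145 ± 51.9 TPM) and Slc27a1, a fatty acid transport protein gene (75.5 ± 13.8 TPM), with Cav1 at 0. Msr1 had 199, 96.1 and 138 TPM, with replicate 1 highest and replicate 2 lowest, the order of Acsl1 and unlike that of Cd36.

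Other binding protein genes had 4 of 7 at 1 TPM or more, led by the acyl-CoA-binding genes Acbd3 (30.9 ± 3.50 TPM), Acbd5 (29.3 ± 1.77 TPM) and Dbi (5.37 ± 1.68 TPM). Fabp2, the intestinal binding protein gene, was at 0. Fabp5 stood well above each gene of this list in every library. Other acyl-CoA synthetase genes had 3 of 6, Acsl4 (20.4 ± 1.69 TPM), Acsl5 (15.3 ± 1.64 TPM) and Acsl3 (9.96 ± 2.34 TPM), each below Acsl1 on average, with Slc27a2 at 0.

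Glycerolipid and sterol ester synthesis had 11 of 15 genes at 1 TPM or more. Soat1, which makes cholesteryl ester for droplets, stood at 115 ± 24.3 TPM, Lpin2, a phosphatidate phosphatase gene, at 87.8 ± 8.09 TPM, and the acyltransferase gene Agpat3 at 23.5 ± 4.90 TPM, with Mogat2 at 0. Soat1 RNA was thus above Dgat1 RNA on average. Droplet coat and assembly had 9 of 16, led by Aup1, a droplet-associated protein gene (170 ± 13.2 TPM), Pcyt1a, which serves phosphatidylcholine synthesis (35.6 ± 3.41 TPM), and Ldah, a droplet hydrolase gene (32.1 ± 1.55 TPM), with Fitm1 at 0. Lipolysis had 5 of 9, led by Lipa, the lysosomal acid lipase gene (81.7 ± 9.69 TPM), Abhd12 (65.4 ± 0.467 TPM) and Ddhd2 (34.8 ± 3.82 TPM), with Ces1d at 0. Lipa RNA was above that of the cytoplasmic lipase genes Pnpla2 and Mgll.

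Fatty acid oxidation had 12 of 12 genes at 1 TPM or more, and the mitochondrial enzyme genes Hadha (28.5 ± 3.57 TPM) and Acadm (24.2 ± 2.19 TPM) were among its highest. Cpt1b was lowest at 1.06 ± 0.360 TPM. Fatty acid synthesis had 8 of 10, led by Acly (35.0 ± 3.93 TPM), Acaca (31.8 ± 6.61 TPM) and Scd2 (20.3, 32.6 and 24.9 TPM in replicates 1, 2 and 3), with Scd1 at 0.233 ± 0.152 TPM. Transcriptional regulators of lipid genes had 12 of 15. They were led by the liver X receptor genes Nr1h3 (67.8 ± 13.2 TPM) and Nr1h2 (54.9 ± 2.25 TPM) and by Srebf1 (40.3 ± 11.1 TPM), with Ppara at 0. Srebf1 had 29.2, 51.3 and 40.5 TPM, the library order of Lpl and Cd36, with replicate 2 highest and replicate 1 lowest.

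**Figure D4:**
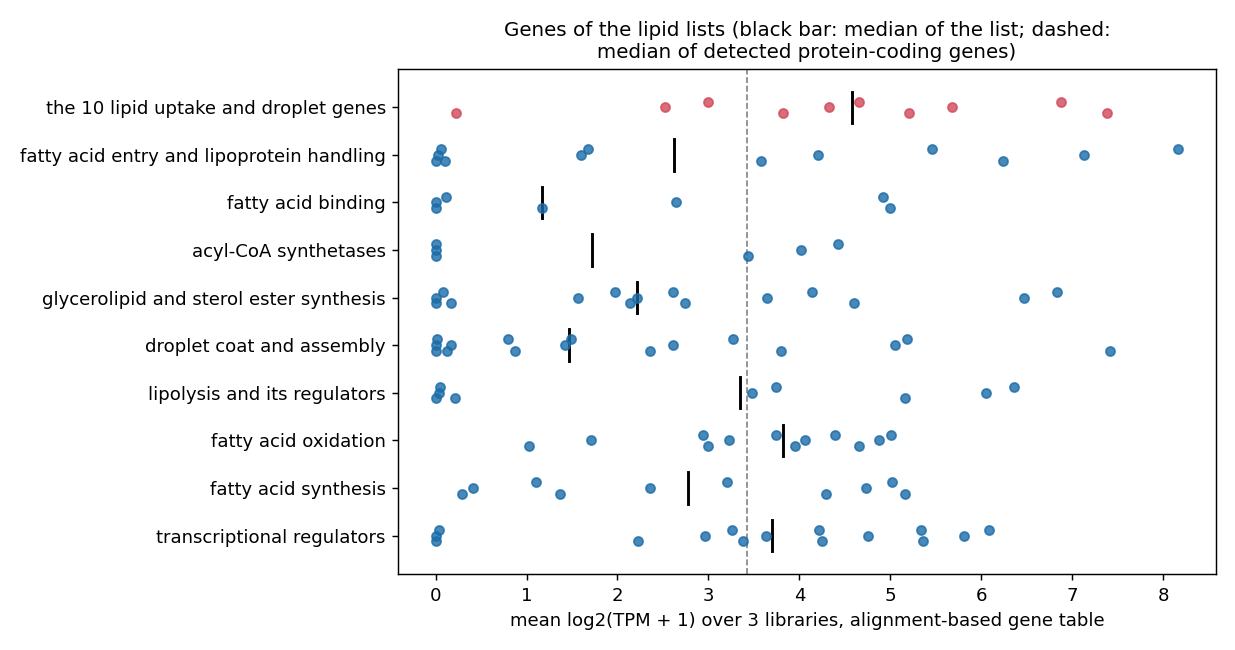
Mean log2(TPM + 1) over 3 libraries for the 10 genes (top row) and the 102 genes of the 9 other lipid lists, 1 point per gene, with a black bar for each median and a dashed line at 3.43, the median of detected protein-coding genes. The 10 genes have a median of 4.58, and fatty acid oxidation (3.82) and transcriptional regulators (3.69) are the other lists with a median above the dashed line. The list medians include undetected genes, which the dashed line leaves out. In the read-based table lipolysis, with a median of 4.55, also lay above the detected protein-coding genes (3.91, 3.92 and 3.93 in replicates 1, 2 and 3).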

How the data were processed

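The members and the gene lists were chosen with earlier results of these data known. Per the file headers and the README files deposited with them, the authors quantified each of 3 libraries on mm10 with GENCODE M21. For genes and for transcripts the authors deposited expected counts and TPM from alignments, and for transcripts a further table of estimated counts and TPM taken from the reads. Tools, versions and the use of strand are not given in the sources used here. Rows outside annotated genes held 1.24, 0.482 and 0.228% of counts and were left out. Levels used log2(TPM + 1), and detection a mean rounded count of at least 10. Expected counts were rounded for edgeR 4.0.16 (TMM, intercept-only dispersion) and DESeq2 1.42.0 size factors, under R 4.3.3. The dispersion step was tested on simulated counts of 15879 genes that all had the same coefficient. Coefficients of 0.1, 0.2 and 0.4 came back as 0.100, 0.199 and 0.398 in the value common to all genes. How well the coefficients of single genes are recovered was not tested. Other steps used Python 3.11.15, pandas 2.3.3 and BLAST 2.17.0. Transcript sequences came from GENCODE M21. With 1 group there was no test, and intervals cover counting error only, since no molecular identifiers are named that would mark PCR copies. Named genes are the 10 members, from each other lipid list the lowest gene and the 3 highest, the leading transcript of each member in each table, near-identical copies, and the 3 genes most like the most variable member. A gene that this rule takes is not reported here. Alternatives covered the table, scaling, pseudocount, the filter on low counts and leaving out each library.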

Additional observations from a re-analysis of the deposited data

How the results depend on the processing

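No paired analysis was possible because the series has 1 group. The median level of the 10 genes was 4.75 in the read-based table and 5.46 with TPM rescaled without short features and ribosome-rich genes, a change that the rescaling makes by construction, and stayed within its SD with pseudocount 0.1 and without each library. Members past 1.5-fold in replicate 3 rose from 0 to 1 with TMM-scaled and to 1 with DESeq2-scaled counts, and the member was Mgll. It stood above, where 1.03% (TMM) and 3.49% (DESeq2) of detected genes did. Members highest in replicate 1 fell to 1 with both of these scalings. The median spread of the 10 genes ranged from 0.104 to 0.461 when 1 library was left out. The median share of the leading transcript was 30.5% in the read-based table and 62.5% by counts, and 43.5 to 46.1% with 1 library left out. The spread of the 9 detected members with each library left out was added after seeing the data. The causes were not tested. Of the levels of the 10 genes, 6 moved beyond their SD in the read-based table and 9 with rescaling, and 0 of 30 did so when a library was left out. Depth limits Dgat2, with 3 counts in all, and Mgll, with 42 counts in replicate 1.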
